A study of Mus musculus with 10 samples.

Results

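The effect of deleting Mof was set against the effect of etomoxir, gene by gene, in mouse embryonic stem cells. For each gene the change KO minus WT and the change ETO minus Control were taken on the scale of log2(normalised count + 1), and the second was subtracted from the first. This difference is above 0 where a gene stood higher after Mof deletion than its change under etomoxir would give, and below 0 in the opposite case. The comparison used 8 of the 10 libraries of the series. It covered 15865 of 49624 gene rows, those with a normalised count of at least 10 in at least 2 of the 8 libraries. All cells were blastocyst-derived and grew in 2i/LIF, in which 2 kinase inhibitors and the cytokine LIF hold them in a naive state. WT and KO cells were both Mof fl/fl with Cre-ER TM, on C57BL/6J, so the WT cells also carried the floxed alleles and the inducible Cre. The protocol names ethanol or 100 nM 4-hydroxytamoxifen for 3 days, without saying which group received which, and no group with the drug and intact Mof was described. Control and ETO cells were of the E14tg2a line and received water or etomoxir for 4 days; the etomoxir dose is not given in the sources used here. Each of the 4 groups had 2 libraries, described as biological duplicates, so the p-values measure the spread between these samples. The cell line, the agents and the days of treatment differ between the experiments, and their part in any difference between the 2 changes cannot be told apart from Mof loss against etomoxir.

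Mof is the gene Kat8, and its protein is the catalytic subunit of the MSL and NSL complexes, which acetylate histone H4. Etomoxir inhibits CPT1, the outer-membrane enzyme that couples long-chain fatty acids to carnitine so that they can enter mitochondria for oxidation. Many forms of nutrient, redox or mitochondrial stress converge on phosphorylation of the translation factor eIF2. That step lowers general translation and raises synthesis of ATF4, a transcription factor for amino acid transporters, amino acid enzymes and stress regulators. ATF4 dimerises with C/EBP proteins on a composite site, the C/EBP-ATF response element (CARE).

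Genes of the ATF4 list were among those that moved alike, and promoters of 3 of them are shown because each holds a CARE word. The sequences run from 250 bases before the annotated start to the base before it, 5′ to 3′ on the gene's strand, from RefSeq on GRCm38.p6, the assembly of the build mm10. Capitals mark TGATGNAAN on either strand, its reverse complement being NTTNCATCA. The promoter of Chac1, a glutathione-degrading enzyme, is chr2:119350992-119351241, plus strand, and its match begins 194 bases before the start. That of Atf3, a stress-induced transcription factor, is chr1:191183334-191183583, minus strand, with a match 111 bases before the start. That of Slc7a11, the cystine importer, is chr3:50443614-50443863, minus strand, with matches 66 and 48 bases before the start.
Chac1: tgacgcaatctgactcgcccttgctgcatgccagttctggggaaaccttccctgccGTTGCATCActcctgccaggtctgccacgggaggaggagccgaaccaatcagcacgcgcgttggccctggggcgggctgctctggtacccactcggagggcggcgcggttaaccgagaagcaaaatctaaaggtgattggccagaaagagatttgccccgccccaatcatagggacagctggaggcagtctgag
Atf3: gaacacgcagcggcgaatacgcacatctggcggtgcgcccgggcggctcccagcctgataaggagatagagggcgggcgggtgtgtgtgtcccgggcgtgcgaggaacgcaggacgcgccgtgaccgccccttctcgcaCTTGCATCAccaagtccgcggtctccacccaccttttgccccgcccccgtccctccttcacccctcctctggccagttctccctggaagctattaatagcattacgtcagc
Slc7a11: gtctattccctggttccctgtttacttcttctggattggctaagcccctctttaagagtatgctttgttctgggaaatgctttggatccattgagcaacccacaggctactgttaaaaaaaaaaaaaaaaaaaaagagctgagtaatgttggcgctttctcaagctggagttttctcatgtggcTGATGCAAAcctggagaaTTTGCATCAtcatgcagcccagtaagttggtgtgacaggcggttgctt
A CARE word lay in the same window in 9 of the 29 tested ATF4-list genes with a promoter in the table (31%), against 3.44% of all 32851 promoters. These 9 were Atf3, Chac1, Asns, Nupr1, Vldlr, Herpud1, Slc7a11, Pck2 and Jdp2. Asns and Pck2 did not move alike, while Atf4, Ddit3 and Cebpb, which rose in both comparisons, are not among the 9. The share describes a list drawn up around ATF4, not the genes that moved alike. A match is a description of the letters, not a site that was tested.

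The 8 libraries held 10562067 to 13326172 normalised counts each, which stand for an estimated 9783249 to 12870842 reads. In them, 3 reads corresponded to 2.491 to 4.036 normalised counts. The median absolute log2 difference between the duplicates of a group was 0.182 in WT, 0.146 in KO, 0.105 in Control and 0.118 in ETO. All 9 markers of embryonic stem cells were detected in every library, and their summed normalised counts were 62988.0 to 64412.0 in WT, 58892.1 to 59275.9 in KO, 66068.3 to 66082.0 in Control and 39516.4 to 41575.4 in ETO. Summed feeder markers were 29.5 to 37.9 in WT, 32.7 to 44.4 in KO, 62.3 to 64.9 in Control and 167.7 to 169.0 in ETO, and of these 7 markers 5 were at 0 in both WT libraries, 4 in both KO libraries, and 1 each in Control and ETO. The ETO sum was mostly Col1a1, at 152 and 154 in ETO and 39.6 and 40.5 in Control. Every other feeder marker stood at 10.9 or less in ETO. Rows of mitochondrial genes took 0.588% to 3.387% of the signal, least in ETO. Fewer cells of a type and less RNA per cell cannot be told apart in bulk samples. Kat8 (chromosome 7, 127912517 to 127925838, mm10) measured 433 and 357 in WT, 222 and 205 in KO, 372 and 383 in Control and 566 and 529.7 in ETO. The KO values lie below both WT values and the ETO values above both Control values, with log2 changes of -0.88 in KO (adjusted p = 8.71e-05) and 0.53 in ETO (adjusted p = 0.00105). The table gives 1 value for the whole gene, so the deleted exons cannot be read on their own.

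Both comparisons changed many genes, and the genes they shared split between those that moved together and those that moved in opposite directions. In KO, 3703 genes rose (23.3% of those tested) and 1972 fell (12.4%), a total of 35.8%, at an adjusted p under 0.05. In ETO, 4195 rose (26.4%) and 5285 fell (33.3%), a total of 59.8%. The difference of the 2 changes was called for 8411 genes (53%), above 0 for 4984 (31.4%) and below 0 for 3427 (21.6%). A total of 3825 genes were called in both comparisons, which is 67.4% of the KO calls and 40.3% of the ETO calls. Of these, 1220 rose in both (alike up, 7.69% of tested genes), 709 fell in both (alike down, 4.47%), 1427 rose in KO and fell in ETO (8.99%) and 469 fell in KO and rose in ETO (2.96%). The 1896 genes of opposite sign are termed apart here. All of them had the difference called, which follows from the 2 calls of opposite sign and is no separate support. Of the genes that rose in KO, 32.9% rose in ETO and 38.5% fell there; of the genes that fell in KO, 36% fell in ETO and 23.8% rose. Across all 15865 genes the changes correlated weakly (Pearson's r = 0.17, Spearman's rho = 0.08), and across the 3825 called in both r was 0.34 and rho 0.24; these are descriptions across genes, which are not independent replicates.

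**Figure D1:**
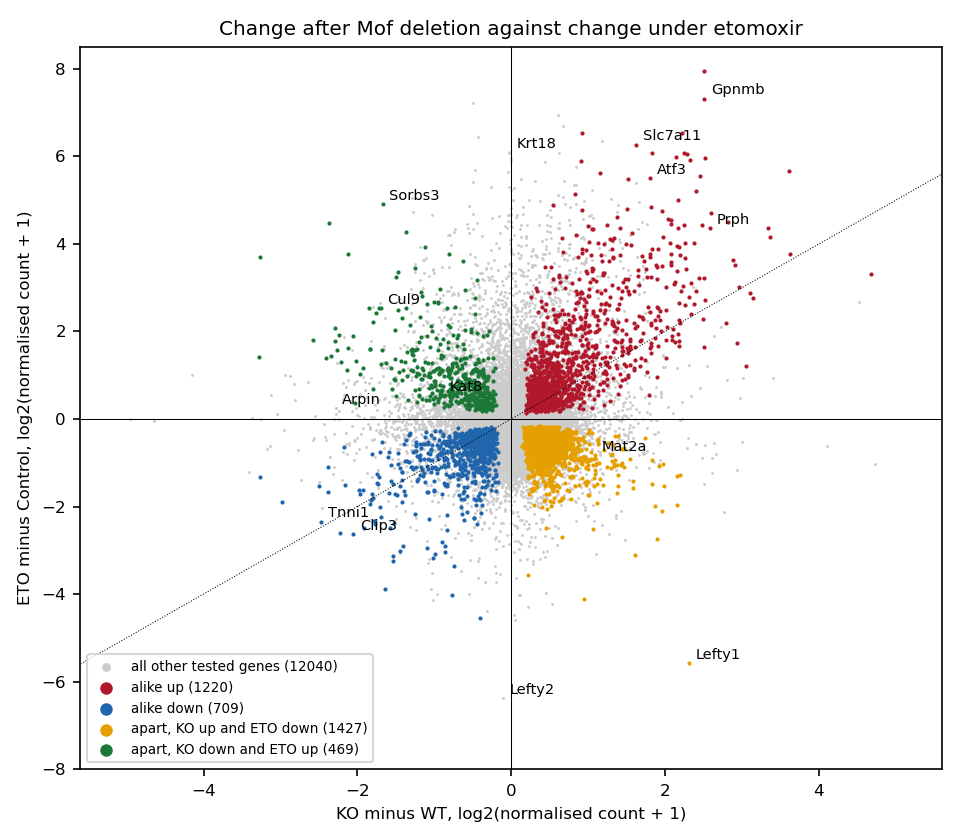
Log2 change KO minus WT (x axis) against log2 change ETO minus Control (y axis) for the 15865 tested genes; colours mark genes called in both comparisons, grey all others, and the dotted line equal changes. The 1220 genes that rose in both reach further along the ETO axis than along the KO axis, with median changes of 0.95 and 0.58.

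The scale of the libraries bears on these counts. The median change of all tested genes was 0.08 in KO, -0.09 in ETO and 0.13 for the difference. Scaling the libraries by total signal instead lowered KO changes by a median of 0.16 and raised ETO changes by 0.19, so that the difference fell by 0.35; the other 3 scalings moved them by less or as much. The group that rose in KO and fell in ETO shrank from 1427 genes to 476 with total signal, and the group that fell in KO and rose in ETO grew from 469 to 1076. Rising genes made up 65.3% of the KO calls as deposited and 36.3% with total signal, and 44.3% and 59.2% of the ETO calls. A class held under all 5 scalings for 766 of the 1220 genes alike up, 501 of the 709 alike down, 476 of the 1427 that rose in KO and fell in ETO, and all 469 that fell in KO and rose in ETO. Each other scaling lowered the KO changes and raised the ETO changes, so genes of this last class could hardly leave it. Its full count is therefore no sign of robustness. Of the genes named here, the following changed class under at least 1 other scaling: Acadm, Asns, Atp6v0d1, Calr, Ccnb1, Cdk1, Cdkn1a, Cpt1c, Cth, Decr1, Etv4, Grb10, Hsd17b4, Hsp90b1, Il17rc, Jdp2, Mcm10, Ogt, P4hb, Pdk1, Pla2g4f, Plin2, Psat1, Psd4, Rrm2, Sirt2, Tfe3, Tfeb and Tsc1.

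**Figure D2:**
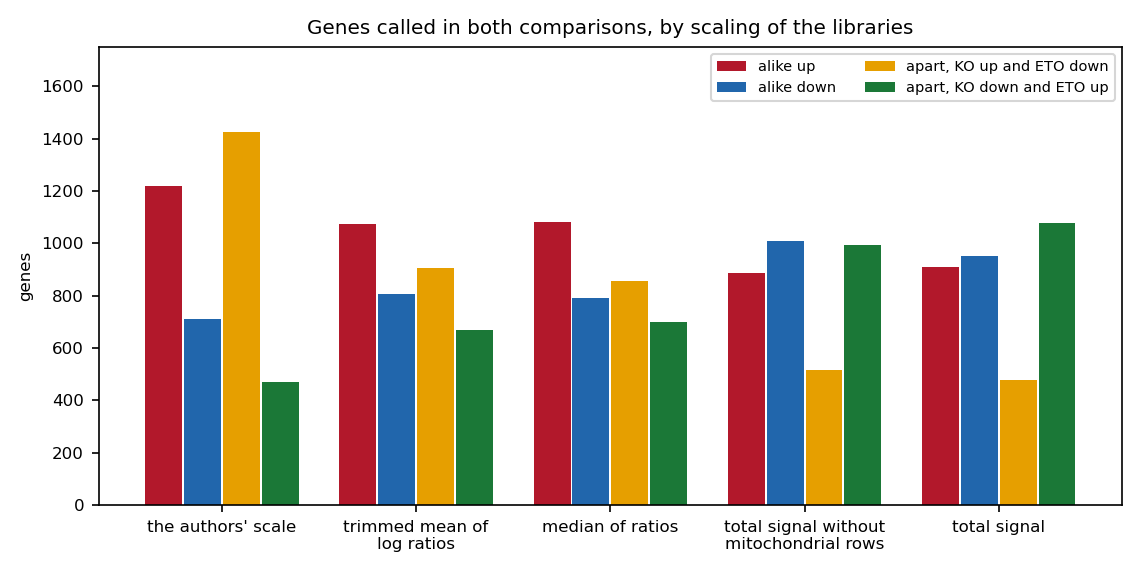
Number of genes (y axis) in each class of genes called in both comparisons under 5 scalings of the libraries (x axis). Genes that rose in KO and fell in ETO went from 1427 to 476 and genes that fell in KO and rose in ETO from 469 to 1076 between the authors' scale and total signal, while genes alike up stayed between 885 and 1220.

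Genes moving alike included much of the ATF4 list. Counts of this and the later lists are to be set beside the shares of all tested genes. In KO, 23.3% of all tested genes rose and 12.4% fell, and in ETO 26.4% rose and 33.3% fell. Of 32 tested genes of the ATF4 and amino acid list, 26 rose and 0 fell in KO, 24 rose and 3 fell in ETO, and 21 rose in both, 20 of them under all 5 scalings. The list's median change was 0.72 in KO and 1.15 in ETO. The changes were unequal in size, with the difference called below 0 for 17 members and above 0 for 6. Atf3 measured 65.7 and 55.0 in WT, 226 and 200.3 in KO, 31.9 and 24.9 in Control and 1299 and 1342 in ETO, all 4 treated or deleted libraries above their own controls, as in all 1220 genes alike up. Its log2 change was 1.81 in KO (adjusted p = 6.5e-06) and 5.50 in ETO (adjusted p = 1.14e-11), and the difference was -3.69 ± 0.23 (SE, adjusted p = 4.49e-08). Slc7a11 measured 25.9 and 34.4 in WT, 86.1 and 103 in KO, 11.0 and 16.6 in Control and 1083 and 1157 in ETO. It was low in both control groups, and the difference of its changes was -4.64 ± 0.31 (SE, adjusted p = 9.78e-08).

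Ddit3, the pro-apoptotic factor CHOP, measured 536 and 490 in WT, 1368 and 1173 in KO, 99.2 and 76.9 in Control and 1476 and 1542 in ETO. Its starting level was lower in Control than in WT, and its end levels in KO and ETO were close, and the log2 changes were 1.30 and 4.09. Ddit4, an inhibitor of mTORC1, also rose in both, with 2095 and 1889 in WT, 4066 and 3923 in KO, 518 and 461 in Control and 3304 and 3564 in ETO (log2 changes 1.00 and 2.81). Cebpb, a partner of ATF4 on CARE sites, rose from 17.1 and 16.2 to 61.3 and 87.6 in KO and from 7.81 and 7.19 to 167 and 204 in ETO. Further members, chosen after their values were seen, also rose in both. Atf4 itself went from 4874 and 5049 to 8322 and 8355 in KO and from 5052 and 4959.9 to 8608 and 8331 in ETO, with a difference of -0.01 ± 0.08 (SE, adjusted p = 0.932). Chac1, shown above, went from 112 and 55.960 to 366 and 336 and from 77.1 and 89.3 to 299.5 and 267 (difference 0.38 ± 0.34 (SE, adjusted p = 0.379)). For Sesn2, a stress-induced sestrin, Slc7a1, the cationic amino acid importer, Slc1a5, a glutamine importer, and the row of the folate enzyme Mthfd2, the log2 changes were 0.67 and 0.87, 0.67 and 0.58, 0.50 and 0.49, and 0.70 and 0.64, with none of these differences called. An uncalled difference does not show that the changes were equal.

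Enzymes of serine and asparagine synthesis on this list did not follow. Asns, the asparagine synthetase, was not called in KO (log2 change 0.07) and fell in ETO (-0.46, adjusted p = 3.99e-06). Psat1 and Cth, enzymes of serine and cysteine synthesis, rose in KO (0.34 and 0.62) and fell in ETO (-0.28 and -0.19), an opposition that did not hold under all scalings. Pck2, the mitochondrial PEP carboxykinase, rose in KO alone (0.81, adjusted p = 1.97e-05), with an ETO change of -0.04 (adjusted p = 0.685). In the wider list of 17 serine, glycine and one-carbon enzymes, 6 rose and 2 fell in KO, and 2 rose and 12 fell in ETO (with total signal 4 and 5 in KO). Mat2a, the enzyme that makes S-adenosylmethionine, measured 1750.3 and 1893 in WT, 3637 and 4156 in KO, 5910.1 and 5732 in Control and 3407 and 3132 in ETO. KO lay above WT and ETO below Control, with log2 changes of 1.09 and -0.83 and a difference of 1.93 ± 0.11 (SE, adjusted p = 2.27e-08); Control libraries were higher than all 6 others. Of 14 kinases and factors upstream of ATF4, 4 rose and 2 fell in KO, and 3 rose and 9 fell in ETO (with total signal 1 and 5 in KO). The shares of all tested genes were 23.3% and 12.4% in KO, and 26.4% and 33.3% in ETO. Eif2ak1, the heme-regulated eIF2 kinase, fell in both (-0.44 and -0.46), and Eif2s2, the beta subunit of eIF2, rose in KO (0.39) and fell in ETO (-0.85). Cth was no longer called in ETO without Control replicate 1, Control replicate 2 or ETO replicate 2 (adjusted p = 0.143, 0.115 and 0.254).

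Most endoplasmic reticulum genes on the list rose in KO, and on the authors' scale fewer rose in ETO. Of 23 tested members, 16 rose and 1 fell in KO, and 11 rose and 4 fell in ETO, with 9 up in both. With total signal 14 rose and 1 fell in KO, and 15 rose and 0 fell in ETO, so the smaller number in ETO did not hold. Hspa5, the chaperone BiP, measured 2281 and 2549.6 in WT, 4524 and 4796 in KO, 7361 and 7549 in Control and 12327 and 11493 in ETO, rising in both although Control started higher than WT or KO ended; its log2 changes were 0.95 and 0.68, and the sign of their difference (0.27) turned under total signal. Ero1l, the oxidase that supplies disulfides, rose from 1129 and 1367 to 1910.4 and 2138 in KO and from 565 and 556 to 1621 and 1548 in ETO. Xbp1 and Atf6, transcription factors of the unfolded protein response, also rose in both (1.01 and 0.54, 0.41 and 1.33). Calr, the calcium-binding chaperone calreticulin, measured 7596 and 7813 in WT, 12769 and 12898 in KO, 8436 and 8756 in Control and 8469.9 and 8309 in ETO. It rose in KO (0.74, adjusted p = 1.83e-06) and was not called in ETO (-0.04, adjusted p = 0.602), with a difference of 0.77 ± 0.08 (SE, adjusted p = 2.29e-06). Canx, Pdia3 and P4hb, further chaperones and disulfide isomerases, had KO changes of 0.61, 0.64 and 0.63 beside ETO changes of -0.01, -0.03 and -0.01, none of the last called on the authors' scale. The row of Hsp90b1, the HSP90 of the endoplasmic reticulum, rose in KO (0.51) and fell in ETO (-0.33), the fall not holding under all scalings.

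Many listed targets of p53 also rose in both, without a rise of the p53 transcript in both. The lists overlap, so their counts are not separate support. Sesn2 and Ddit4 stand on the ATF4, p53 and mTORC1 lists, and Ccng1, Btg2 and Gadd45a on those of p53 and of cell cycle brakes. Slc7a11 stands on the ATF4 and NRF2 lists. Of 31 tested members, 19 rose and 1 fell in KO, and 22 rose and 5 fell in ETO; 14 rose in both, 12 of them under all 5 scalings. Perp, a desmosome-linked p53 target, measured 49.976 and 64.8 in WT, 312 and 299.8 in KO, 222 and 238 in Control and 1695 and 1818 in ETO. Fas, a death receptor, measured 9.25 and 7.85 in WT, 36.3 and 55.0 in KO, 4.40 and 6.23 in Control and 99.8 and 102 in ETO. Both genes had no overlap between treated and control libraries, as had all 1220 genes alike up. The log2 changes were 2.41 and 2.93 for Perp and 2.26 and 4.03 for Fas. Plk2 and Gadd45a, a kinase and a growth arrest protein, rose by 0.79 and 1.11 in KO and by 2.23 and 2.92 in ETO. Mdm2, which ubiquitinates p53, rose by 0.75 and 1.74, whereas Trp53, which encodes p53, rose in KO (0.56) and fell in ETO (-0.43). The cyclin-dependent kinase inhibitor Cdkn1a rose in ETO (0.70) and was not called in KO (-0.20, adjusted p = 0.0548). Pmaip1, which encodes the apoptosis trigger Noxa, measured 794 and 1008 in WT, 924 and 1069.5 in KO, 33.0 and 22.8 in Control and 733 and 719 in ETO. Its level was already high in WT and stayed so in KO, while Control was low and ETO high, and the difference was -4.52 ± 0.22 (SE, adjusted p = 7.92e-09). Cdkn1a was called in KO without WT replicate 2 (adjusted p = 0.00186).

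Among 16 genes of the BCL2 family, 2 rose and 0 fell in KO, and 7 rose and 5 fell in ETO (with total signal 0 and 2 in KO). Over all tested genes, 23.3% rose and 12.4% fell in KO, and 26.4% rose and 33.3% fell in ETO. Hrk and Bbc3, pro-apoptotic members, rose in ETO (3.69 and 1.89) with KO changes of 0.40 and -0.15 that were not called. Of 25 cell cycle brakes and quiescence genes, 14 rose and 4 fell in KO, and 14 rose and 8 fell in ETO, and the 9 that rose in both did so under all 5 scalings. Cdkn1c, the inhibitor p57, went from 44.7 and 53.015 to 87.4 and 111 in KO and from 36.3 and 34.2 to 105 and 117 in ETO (difference -0.62 ± 0.29 (SE, adjusted p = 0.0887)). Btg2 and Klf6, an antiproliferative factor and a zinc finger factor, rose by 0.45 and 0.55 in KO and by 1.69 and 2.00 in ETO. Gadd45g went the other way in KO: it measured 307 and 236 in WT, 90.1 and 99.5 in KO, 4.40 and 8.30 in Control and 67.2 and 65.6 in ETO. The KO libraries lay below WT and the ETO libraries above Control, yet ETO remained below KO in level, with a difference of -4.75 ± 0.37 (SE, adjusted p = 3.01e-07).

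Redox and heat shock genes separated. Of 27 NRF2 and glutathione genes, 15 rose and 2 fell in KO, and 14 rose and 8 fell in ETO, and 10 rose in both, 8 under all 5 scalings. Srxn1, the sulfiredoxin that restores peroxiredoxins, measured 486 and 512 in WT, 848 and 944 in KO, 609.8 and 582 in Control and 4714 and 4419.6 in ETO, with KO above WT and ETO far above Control. Nqo1, Gclc and Nfe2l2, a quinone reductase, a glutathione synthesis enzyme and NRF2 itself, rose by 0.76, 0.58 and 0.42 in KO and by 1.07, 0.73 and 0.38 in ETO. Sod2, the mitochondrial superoxide dismutase, moved apart, rising in KO (0.50) and falling in ETO (-0.61). Of 20 cytosolic heat shock genes, 13 rose and 0 fell in KO, and 4 rose and 10 fell in ETO, and 9 rose in KO and fell in ETO, 4 of them under all 5 scalings. Hspa4, an HSP110-class exchange factor, went from 7585 and 8899.6 to 11650 and 12591 in KO and from 10571 and 10357 to 6304 and 6069 in ETO. The small heat shock genes Hspb8 and Cryab rose in both, Cryab from 13.9 and 11.8 to 39.0 and 33.1 in KO and from 105 and 146 to 792 and 917 in ETO. Hspa1a and Hspa1b, the stress-inducible HSP70 genes, were called in neither comparison.

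Many lysosome genes rose in ETO, and fewer in KO. Of 36 tested members, 19 rose and 2 fell in KO, and 29 rose and 6 fell in ETO; 17 rose in both, 10 under all 5 scalings, and the list's median was 0.17 in KO and 0.85 in ETO, or 0.01 and 1.04 with total signal. Gpnmb, a lysosomal membrane glycoprotein (chromosome 6, 49036518 to 49058182, mm10), measured 85.1 and 78.5 in WT, 489.7 and 453 in KO, 69.3 and 75.8 in Control and 11752 and 11775 in ETO. The control groups matched closely in level, KO stood above both and ETO far above KO, with log2 changes of 2.51 in KO (adjusted p = 7.23e-09) and 7.32 in ETO (adjusted p = 8.51e-15). The merged row of Ctsd, the protease cathepsin D, went from 7542 and 7224 to 11654 and 10750 in KO and from 6058 and 6136 to 24212 and 24582 in ETO. Cln3, a lysosomal membrane protein, and Flcn, the folliculin regulator of lysosomal signalling, rose by 0.80 and 0.64 in KO and by 1.39 and 1.21 in ETO. Atp6v0d1, a proton pump subunit, rose in ETO (1.40) and was not called in KO (-0.12). Mitf, a transcription factor of lysosome genes, fell in ETO (-0.91); Tfeb and Tfe3, its relatives, also fell there on the authors' scale (-0.83 and -0.32). Of 35 autophagy genes, 8 rose and 9 fell in KO, and 17 rose and 7 fell in ETO (with total signal 4 and 13 in KO and 23 and 2 in ETO). The all-gene shares were 23.3% up and 12.4% down in KO, and 26.4% up and 33.3% down in ETO. The receptor gene Sqstm1 and Atg9b rose in both, Sqstm1 from 3937 and 3519 to 7349.5 and 6956 and from 3230 and 3114 to 13206 and 13488. In contrast 6 autophagy genes fell in KO and rose in ETO, among them Gabarapl1, a member of the ATG8 family, with 1989 and 1941 in WT, 1599.7 and 1445 in KO, 509 and 569.8 in Control and 1103 and 1049 in ETO. Of 23 brakes on mTORC1, FoxO factors and insulin signalling genes, 6 rose and 1 fell in KO, and 14 rose and 4 fell in ETO (with total signal 5 and 6 in KO); Foxo3 and Tsc1 rose in ETO (1.08 and 0.99) with KO changes of 0.00 and -0.04, not called. Gabarapl1 was no longer called in KO without KO replicate 2 (adjusted p = 0.0501). Tfe3 was no longer called for the difference without Control replicate 1, ETO replicate 1 or KO replicate 1 (adjusted p = 0.0529, 0.0546 and 0.0589). Tfeb was no longer called in KO without KO replicate 1, KO replicate 2 or WT replicate 2 (adjusted p = 0.111, 0.0881 and 0.231).

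**Figure D3:**
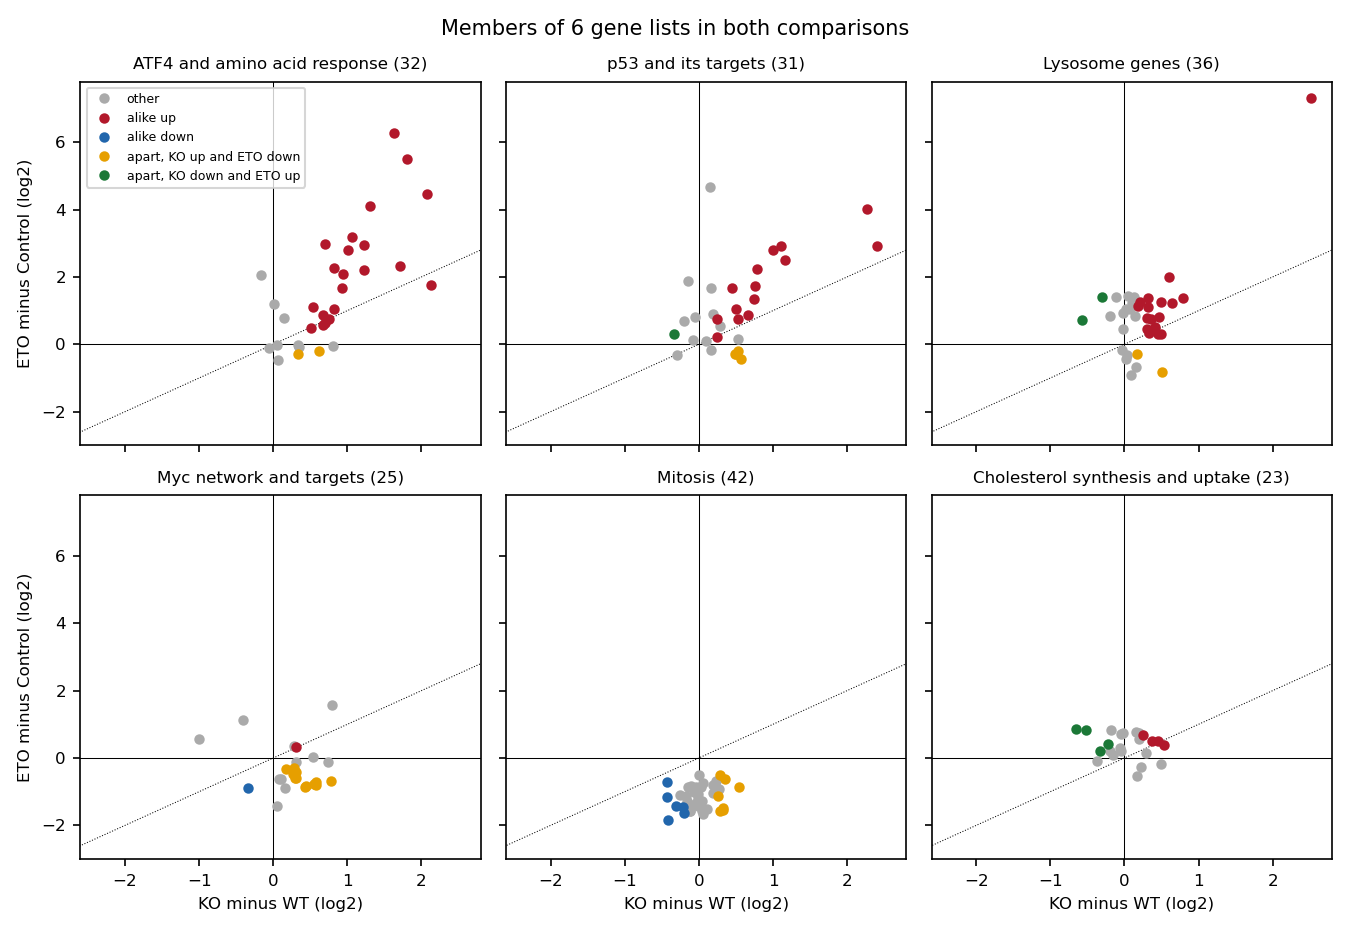
Log2 change KO minus WT (x axis) against log2 change ETO minus Control (y axis) for the tested members of 6 gene lists; colours mark members called in both comparisons and the dotted line equal changes. Of the 32 ATF4-list genes 21 rose in both and lie to the upper right, 12 of the 25 Myc genes rose in KO and fell in ETO and lie to the lower right, and all 42 mitosis genes lie below 0 in ETO while their KO changes sit on both sides of 0.

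Further genes rose in both comparisons. Prph, the neuronal intermediate filament peripherin, measured 15.7 and 15.7 in WT, 96.9 and 102 in KO, 6.60 and 17.6 in Control and 234 and 255 in ETO, with log2 changes of 2.59 and 4.37. Ces2g, Ces2f, Cyp1b1, Avil, Ptprt and Ptprz1 also rose in both, but at least 1 control group held under 4 normalised counts per library for each. Cyp1b1, a cytochrome that metabolises oestrogens and xenobiotics, measured 0 and 1.96 in WT and 12.1 and 22.3 in KO, and 33.0 and 28.0 in Control and 672 and 617 in ETO. Avil, the actin-binding protein advillin, measured 0 and 3.22 in WT and 50.1 and 53.5 in KO, and 15.0 and 18.998 in Control and 165 and 190 in ETO. Abhd5, a lipase coactivator on lipid droplets, went from 98.1 and 134 to 293 and 296 in KO and from 340.1 and 316 to 744 and 792 in ETO, with a difference of 0.13 ± 0.19 (SE, adjusted p = 0.592). Jun, an immediate early factor, rose from 96.8 and 102 to 257 and 259.9 and from 33.0 and 46.6 to 1016 and 960.5. Taf7l and Dazl, germline genes, rose in both as well (2.32 and 2.78, 1.06 and 0.91), as did the basement membrane collagen genes Col4a1 (1.55 and 1.78) and Col4a2 (1.06 and 2.43). Col4a2 was no longer called in KO without KO replicate 1 (adjusted p = 0.0506).

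Among genes falling in both, Tnni1, a slow skeletal troponin gene (chromosome 1, 135783033 to 135810989, mm10), measured 185 and 158 in WT, 21.5 and 41.9 in KO, 211 and 278 in Control and 47.4 and 46.5 in ETO. The KO and ETO libraries ended at comparable levels below their controls, with log2 changes of -2.47 in KO (adjusted p = 2.12e-05) and -2.34 in ETO (adjusted p = 3.38e-06). Clip3, a microtubule-associated protein, measured 69.4 and 57.9 in WT, 16.1 and 13.1 in KO, 61.6 and 71.6 in Control and 9.88 and 9.96 in ETO (difference 0.58 ± 0.40 (SE, adjusted p = 0.246)). Gng7, a G protein gamma subunit, measured 170.3 and 164 in WT, 52.5 and 43.2 in KO, 129 and 114 in Control and 23.7 and 23.2 in ETO. Acat1, the mitochondrial acetoacetyl-CoA thiolase of ketone and isoleucine metabolism, fell from 620.1 and 601 to 283 and 279 in KO and from 364 and 333 to 125 and 129.5 in ETO (difference 0.33 ± 0.15 (SE, adjusted p = 0.081)). Ehhadh, a peroxisomal enzyme of fatty acid oxidation, and Pcca, a subunit of propionyl-CoA carboxylase, fell in both, with log2 changes of -0.98 and -0.85 in KO and -1.14 and -0.91 in ETO. Gbx2, a homeobox factor of naive pluripotency, measured 62.1 and 46.1 in WT, 24.1 and 27.9 in KO, 475 and 466 in Control and 51.8 and 50.4 in ETO, falling in both from very unlike starting levels. Axin2, a feedback target of Wnt signalling, fell in both (-0.48 and -1.46). The remaining genes of the 8 named here by rule, Qprt, Cacng7, Ttc26, Sapcd1 and Zc4h2, had KO changes of -2.98 to -1.77 and ETO changes of -2.50 to -1.71. Cacng7 was no longer called in ETO without ETO replicate 2 (adjusted p = 0.0816).

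The lists of the Myc network, ribosome biogenesis, ribosomal proteins and the proteasome held genes that rose in KO and fell in ETO, a class of 8.99% of all tested genes; 23.3% of all genes rose in KO and 33.3% fell in ETO. Of 25 genes of the Myc network and its targets, 16 rose and 1 fell in KO, and 4 rose and 17 fell in ETO; 12 moved apart in this direction, 4 of them under all 5 scalings, and the median was 0.31 in KO and -0.59 in ETO, or 0.14 and -0.40 with total signal. Of 40 genes of ribosome biogenesis and RNA polymerase I, 19 rose and 3 fell in KO, and 0 rose and 31 fell in ETO, with 13 apart, 7 under all 5 scalings. The median was 0.17 in KO and -0.55 in ETO, and 0.01 and -0.37 with total signal. Ddx21, an RNA helicase of ribosomal RNA processing, measured 3283 and 3809 in WT, 4981 and 5334 in KO, 5801 and 5789 in Control and 2975 and 2915 in ETO, with KO above WT and ETO below Control. Ubtf, the factor that holds ribosomal DNA open, and Utp4, a processome subunit, rose in KO (0.37 and 0.55) and fell in ETO (-0.94 and -0.73). The rows of the nucleolar genes Ncl, Nop56 and Nop58, each merged with other annotated genes, rose by 0.57, 0.58 and 0.78 in KO and changed by -0.81, -0.72 and -0.69 in ETO. WT started below Control for these genes, 17349 and 21558 against 35627 and 35717 for Ncl.

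Cytosolic ribosomal protein genes have many near-identical copies in the genome, so that their counts are uncertain. Of 77 tested, 23 rose and 0 fell in KO, and 4 rose and 50 fell in ETO, and 17 moved apart, 7 under all 5 scalings. With total signal as the factor, 12 rose and 4 fell in KO, and 8 rose and 30 fell in ETO. Rpl28 was the member that rose in both, from 291 and 224 to 446 and 436 and from 223 and 274 to 510 and 490.2. Of 34 proteasome subunit genes, 14 rose and 2 fell in KO, and 0 rose and 31 fell in ETO (with total signal 6 and 7 in KO); the KO median of 0.17 went to 0.00 with total signal, and the ETO median of -0.60 to -0.41. Psmc5, an ATPase of the regulatory particle, went from 1966 and 2150.1 to 2867 and 2559 in KO and from 2861 and 3030.5 to 1862 and 1837 in ETO. Of 20 cytosolic aminoacyl-tRNA synthetases, 10 rose and 3 fell in KO, and 5 rose and 11 fell in ETO (with total signal 7 and 5 in ETO). Members differed in direction: Sars rose in both (0.44 and 0.94), Qars fell in both (-0.48 and -0.64), Lars rose in KO and fell in ETO (0.48 and -0.44), and Wars rose in ETO (0.87) without a call in KO (0.11).

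The 4 tested rows that hold protein-coding genes of the mitochondrial genome fell in ETO, and 2 of them rose in KO. The file merges most of them. The row that holds the ribosomal RNAs with mt-Nd1 and mt-Nd2 measured 30658 and 39368 in WT, 68813 and 76646 in KO, 126780 and 124980 in Control and 24642 and 19556 in ETO. The row of mt-Cytb, which encodes cytochrome b, measured 28015 and 34902 in WT, 48291 and 50458 in KO, 68544 and 69750 in Control and 12206 and 9440.4 in ETO. In both rows KO lay above WT and ETO below every other library, with differences of 3.58 ± 0.21 (SE, adjusted p = 2.42e-05) and 3.35 ± 0.19 (SE, adjusted p = 6.72e-06). The large row around mt-Co1 and the row of mt-Nd6 were not called in KO (0.07, adjusted p = 0.706, and 0.40, adjusted p = 0.125) and fell in ETO (-2.48 and -2.35). The share of all signal in mitochondrial rows was 0.588% and 0.761% in ETO and 3.343% and 3.387% in Control. It was 1.85% and 2.204% in WT and 2.261% and 2.348% in KO, a much smaller shift. The class of the mt-Cytb row held in 17 of the 20 settings tried. Among 70 nuclear-encoded subunits and factors of the respiratory chain, 14 rose and 11 fell in KO, and 0 rose and 62 fell in ETO (with total signal 3 and 23 in KO), and the difference was called above 0 for 54, or 35 with total signal. Cox5a, a cytochrome oxidase subunit, went from 2303 and 2279.9 to 2964 and 3311 in KO and from 2709.5 and 2695 to 1552 and 1466 in ETO. Ndufv1 and Ndufa1, subunits of complex I, fell in both (-0.54 and -0.56, -0.52 and -0.82). Of 75 mitochondrial ribosomal protein genes, 14 rose and 10 fell in KO, and 2 rose and 56 fell in ETO (with total signal 4 and 29 in KO), and the median difference of 0.39 went to 0.04 with total signal. Of 17 genes of mitochondrial DNA expression and maintenance, 4 rose and 1 fell in KO, and 1 rose and 12 fell in ETO (with total signal 0 and 3 in KO). Shares of all tested genes were 23.3% up and 12.4% down in KO, and 26.4% up and 33.3% down in ETO. Of 16 mitochondrial chaperones and proteases, 5 rose and 1 fell in KO, and 5 rose and 9 fell in ETO; Hspe1, the HSP10 cochaperonin, moved apart (0.40 and -0.59), and the direction of the difference for Hspa9, the mitochondrial HSP70, which rose in both (0.53 and 0.26), turned with total signal. mt-Cytb was no longer called in KO without WT replicate 1 (adjusted p = 0.0975). mt-Nd6 was called in KO without ETO replicate 1, ETO replicate 2 or WT replicate 2 (adjusted p = 0.0432, 0.0448 and 0.0201).

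Cell cycle genes fell in ETO and had no common direction in KO. All 42 tested mitosis genes fell in ETO, against 33.3% of all genes, while in KO 7 rose and 6 fell, or 1 and 16 with total signal. The difference was called above 0 for all 42 on the authors' scale and for 38 with total signal. Many such genes are held down outside G2 and mitosis through the cell cycle homology region, whose word is TTTGAA. It occurred within 250 bases before the start, on either strand (TTCAAA on the other), in 15 of the 35 mitosis genes with a promoter in the table (42.9%), against 16% of all promoters and 6 of 35 G1/S genes (17.1%). The words TTTGAA and TGATGNAAN were searched separately, and neither contains the other. Promoters of Cdk1, the mitotic kinase (chr10:69352913-69353162, minus strand, matches 71 and 15 bases before the start), and Ccnb2, a mitotic cyclin (chr9:70421555-70421804, minus strand, match 167 bases before the start), are shown with the word in capitals. Both genes fell in ETO, and on the authors' scale only Ccnb2 was called in KO. Their KO changes were not tested against each other, and the class of Cdk1 changed under another scaling. Here too a match describes letters, not a tested site.
Cdk1: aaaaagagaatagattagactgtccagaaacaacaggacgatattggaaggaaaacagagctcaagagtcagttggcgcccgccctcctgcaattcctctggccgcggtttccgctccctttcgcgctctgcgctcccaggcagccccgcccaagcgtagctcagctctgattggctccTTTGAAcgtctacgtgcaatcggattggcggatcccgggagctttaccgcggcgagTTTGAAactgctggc
Ccnb2: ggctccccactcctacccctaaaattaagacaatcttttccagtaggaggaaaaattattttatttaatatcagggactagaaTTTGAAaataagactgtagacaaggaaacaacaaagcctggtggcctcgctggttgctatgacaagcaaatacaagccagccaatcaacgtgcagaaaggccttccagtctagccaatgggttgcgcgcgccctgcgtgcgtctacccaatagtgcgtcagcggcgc
Cdk1 measured 2292 and 2646 in WT, 2283 and 2407 in KO, 2927 and 2935 in Control and 1086 and 1139 in ETO. Ccnb2 measured 2008 and 2062 in WT, 1507 and 1547 in KO, 1504 and 1515 in Control and 409 and 438 in ETO. The ETO libraries lay below all others for both genes. Cdk1 had a KO change of -0.07 (adjusted p = 0.508), while Ccnb2 fell in KO (-0.41, adjusted p = 0.000741); both were chosen after their values were seen. Ccnb1, the other B-type cyclin named, measured 1168 and 1314 in WT, 1479 and 1645 in KO, 1204 and 1277 in Control and 430 and 415 in ETO, with a rise in KO (0.33) that did not hold under all scalings and a fall in ETO (-1.55). Ccnb1 was no longer called in KO without KO replicate 2 (adjusted p = 0.0955).

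Of 42 genes of G1/S and DNA replication, 15 rose and 2 fell in KO, and 1 rose and 41 fell in ETO; with total signal 6 rose and 9 fell in KO. Ccnd1, cyclin D1, measured 1431 and 1483 in WT, 2065 and 2182.1 in KO, 4869 and 4679.9 in Control and 1224 and 1349 in ETO. It rose in KO towards, but not up to, the Control level, and ETO fell below KO, with a difference of 2.44 ± 0.10 (SE, adjusted p = 2.13e-09). Gins3, a subunit of the replicative helicase, fell in both (-0.83 and -0.56). Rrm2 and Mcm10, of nucleotide supply and origin firing, fell in ETO (-1.27 and -1.35), and their KO rises (0.30 and 0.22) did not hold under all scalings. Gas5, a noncoding host of small nucleolar RNAs counted in a merged row, rose in KO (0.81) and fell in ETO (-1.17). H2afz, the histone variant H2A.Z, measured 299 and 323 in WT, 511 and 567 in KO, 532 and 529 in Control and 222 and 209 in ETO, rising in KO and falling in ETO. Of 13 histone genes tested, 3 rose and 3 fell in KO, and 3 rose and 5 fell in ETO (with total signal 1 and 4 in KO). Among all tested genes, 23.3% rose and 12.4% fell in KO, and 26.4% rose and 33.3% fell in ETO. Mcm10 was no longer called in KO without KO replicate 1, KO replicate 2 or WT replicate 2 (adjusted p = 0.145, 0.0501 and 0.0812).

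Lefty1, a secreted inhibitor of Nodal signalling (chromosome 1, 180935022 to 180938401, mm10), measured 13.0 and 8.84 in WT, 49.8 and 65.5 in KO, 269.7 and 255 in Control and 4.94 and 4.15 in ETO, so that KO rose above WT but stayed below Control, and ETO was the lowest. The difference was 7.88 ± 0.41 (SE, adjusted p = 1.32e-08), and the ETO libraries rest on few reads. Lefty2, its paralogue, measured 153 and 172 in WT, 169.5 and 134 in KO, 761 and 737 in Control and 10.9 and 5.81 in ETO. It fell in ETO (-6.38, adjusted p = 8.28e-11) and was not called in KO (-0.11, adjusted p = 0.753). Nodal, the ligand they inhibit, rose in both, from 429 and 326 to 739 and 694 and from 1062 and 1099 to 1425 and 1401. Irgm1, an immunity-related GTPase, went from 27.8 and 40.3 to 105 and 99.5 in KO and from 193 and 196 to 69.2 and 75.6 in ETO. Lrrk2, a kinase known from Parkinson's disease, measured 19.4 and 14.7 in WT, 64.6 and 66.8 in KO, 29.7 and 24.9 in Control and 1.98 and 4.98 in ETO, high in KO and at a few reads in ETO. Others of this class named by rule, Them5, Sgol2b, Gfra2, Erh and Zmat4, had differences of 2.69 to 3.44. Rian, a noncoding RNA of the imprinted Dlk1 region, measured 342 and 396 in WT, 843 and 1032 in KO, 413 and 388 in Control and 205 and 177 in ETO, with KO above all other groups and ETO below them (difference 2.41 ± 0.18 (SE, adjusted p = 1.72e-07)). Vim, the intermediate filament vimentin, rose in KO (0.76) and fell in ETO (-1.33). Erh was no longer called in KO without KO replicate 2 (adjusted p = 0.05). Gfra2 was no longer called in ETO without Control replicate 2 (adjusted p = 0.0735). Nodal was no longer called in ETO without Control replicate 1 (adjusted p = 0.059).

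**Figure D4:**
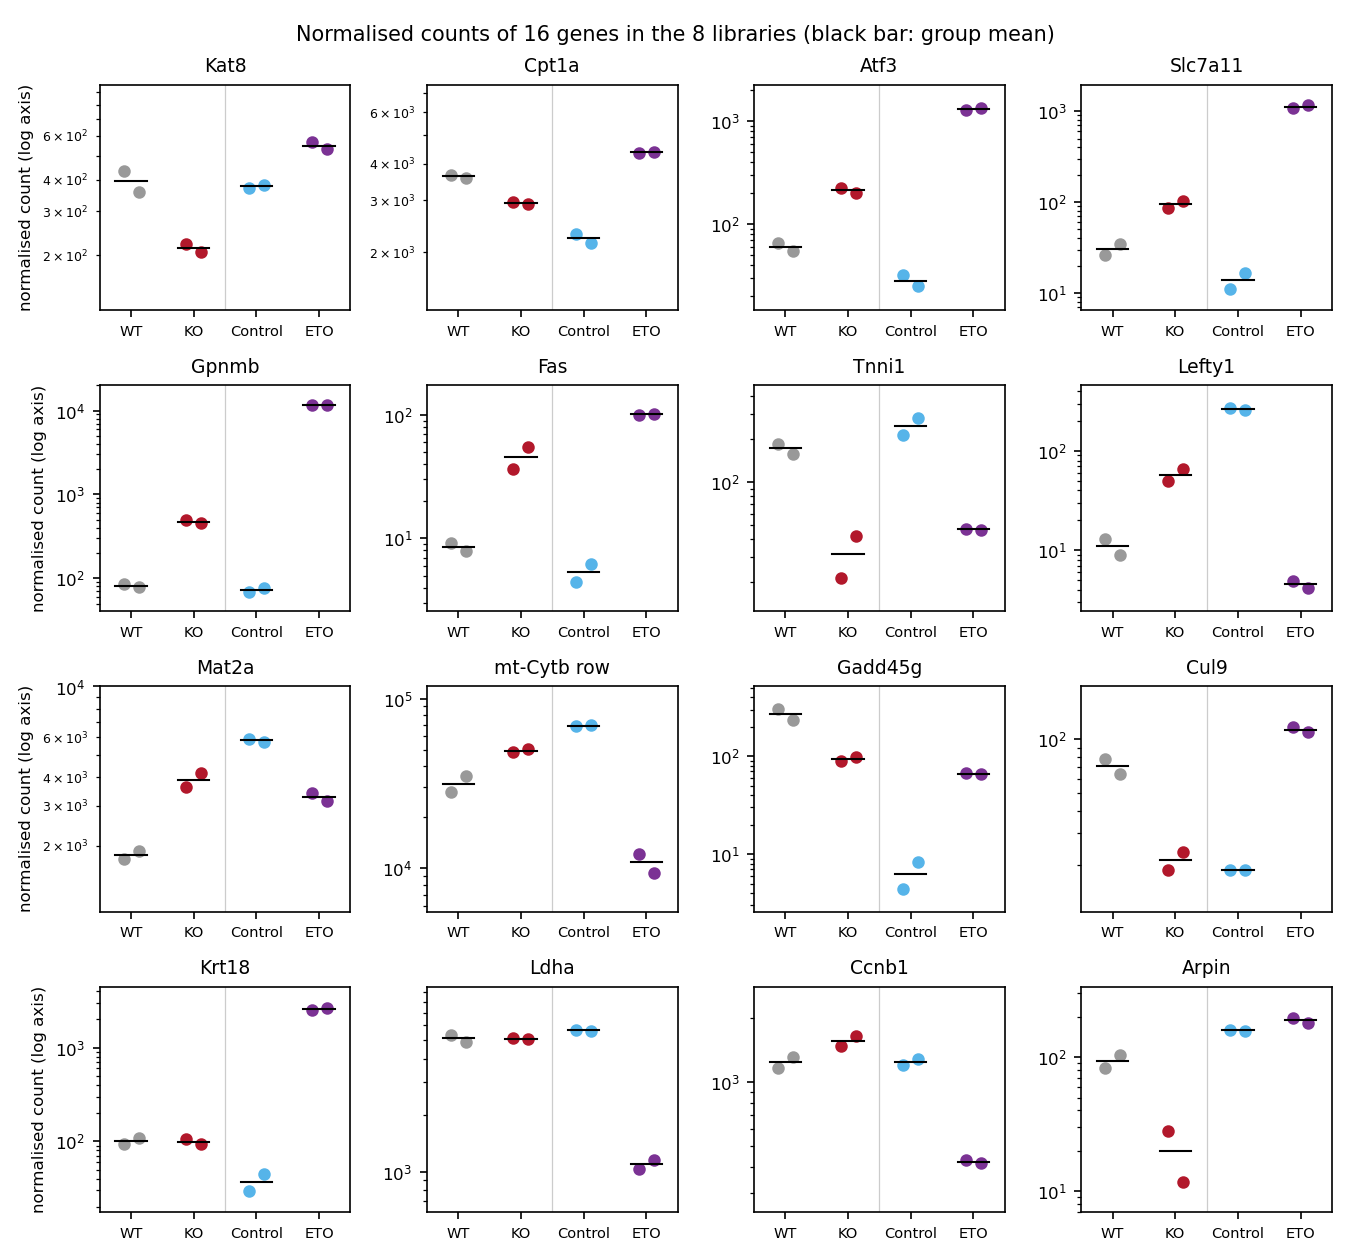
Normalised counts (log axis) of 16 genes in the 2 libraries of each group (points) with the group mean (black bar); each panel has its own axis, and the grey line separates the experiments. Atf3, Slc7a11, Gpnmb and Fas rise in both experiments and Tnni1 falls in both; Lefty1, Mat2a and the mt-Cytb row rise in KO and fall in ETO; Kat8, Cpt1a, Gadd45g and Cul9 fall in KO and rise in ETO.

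Genes that fell in KO and rose in ETO included the enzyme that etomoxir inhibits. Cpt1a, the CPT1 form of most tissues, measured 3677 and 3589 in WT, 2973 and 2928 in KO, 2297 and 2152 in Control and 4365 and 4392 in ETO. ETO lay above Control by 0.98 on the log2 scale, and KO lay below WT by less than that. The difference of the 2 changes was -1.28 ± 0.09 (SE, adjusted p = 1.21e-07). Cpt2, its partner on the inner membrane, measured 329 and 301 in WT, 217 and 241 in KO, 210.2 and 189 in Control and 438 and 449 in ETO (difference -1.61 ± 0.16 (SE, adjusted p = 2.65e-06)); its opposition was also lost in the FPKM values. The merged row of Cpt1b and Chkb, genes of the muscle CPT1 form and of choline kinase beta, rose in both (0.75 and 2.11). Cpt1c, the brain form, had log2 changes of 0.27 and 1.26, a shared rise that did not hold under all scalings. Over the 13 carnitine shuttle genes, 2 rose and 4 fell in KO, and 7 rose and 3 fell in ETO. Beside these stand 23.3% up and 12.4% down in KO, and 26.4% up and 33.3% down in ETO, among all tested genes. Etfdh, which passes electrons from fatty acid oxidation to ubiquinone, measured 392 and 410.4 in WT, 297 and 280.1 in KO, 335 and 382 in Control and 809.7 and 771 in ETO (its row also holds a predicted gene), and fell in KO and rose in ETO. Among 22 beta-oxidation genes of mitochondria, 1 rose and 10 fell in KO, and 4 rose and 10 fell in ETO. With total signal 0 rose and 14 fell in KO, and 7 rose and 7 fell in ETO. Acadl, the long-chain acyl-CoA dehydrogenase, rose in ETO alone, from 194 and 177 to 543 and 529, with 528 and 587 in WT and 517 and 522 in KO. Acadvl and Decr1, the very long-chain dehydrogenase and a dienoyl-CoA reductase, fell in KO alone (-1.16 and -0.73) beside ETO changes of -0.02 and 0.15. Acadm, the medium-chain dehydrogenase, rose in KO (0.25) and fell in ETO (-0.63), the KO rise not holding under all scalings. Acadm was no longer called in KO without KO replicate 2 or WT replicate 1 (adjusted p = 0.152 and 0.0771). Cpt1c was no longer called in KO without KO replicate 1 or WT replicate 2 (adjusted p = 0.151 and 0.1). Cpt2 was no longer called in KO without KO replicate 1 (adjusted p = 0.0552).

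Some pyruvate, acetate and sterol enzymes also fell in KO and rose in ETO. Pdk4, a kinase that shuts pyruvate dehydrogenase, measured 1104 and 1131 in WT, 665 and 661 in KO, 103 and 107 in Control and 384 and 417 in ETO. WT and KO stood above both E14tg2a groups, KO fell and ETO rose, with a difference of -2.67 ± 0.13 (SE, adjusted p = 8.55e-09). Acss2, which makes acetyl-CoA from acetate, went from 577 and 591 to 342 and 374 in KO and from 291 and 229.6 to 581 and 619 in ETO. Of 23 cholesterol genes, 5 rose and 5 fell in KO, and 17 rose and 1 fell in ETO (with total signal 3 and 8 in KO); 4 fell in KO and rose in ETO (Lss, Nsdhl, Hsd17b7 and Insig1) and 4 rose in both, among them Fdft1 and Sqle. Lss, the lanosterol synthase, measured 1550 and 1529 in WT, 1088 and 1064 in KO, 1438 and 1408 in Control and 2549 and 2556 in ETO, with KO below WT and ETO above Control. Sqle, the squalene epoxidase just before it, rose from 1396 and 1561 to 2033 and 2232 and from 3125 and 3054 to 4086 and 4045. The difference was -1.36 ± 0.09 (SE, adjusted p = 1.16e-07) for Lss and 0.13 ± 0.10 (SE, adjusted p = 0.306) for Sqle. Of 17 lipid droplet genes, 5 rose and 1 fell in KO, and 10 rose and 0 fell in ETO; Plin2, the droplet coat perilipin 2, measured 1241 and 1199.7 in WT, 1453 and 1474 in KO, 582 and 591 in Control and 3956 and 4117 in ETO, a rise in ETO of 2.78 beside 0.26 in KO, the latter not held in all settings. Of 16 fatty acid synthesis genes, 6 rose and 2 fell in KO, and 7 rose and 6 fell in ETO (with total signal 1 and 4 in KO). Shares of all tested genes were 23.3% up and 12.4% down in KO, and 26.4% up and 33.3% down in ETO. Of 16 peroxisomal enzymes, 0 rose and 5 fell in KO, and 3 rose and 9 fell in ETO; Hsd17b4, a multifunctional enzyme of peroxisomal oxidation, fell in KO (-0.76). Hsd17b4 was called in ETO without WT replicate 1 or WT replicate 2 (adjusted p = 0.0375 and 0.038). Insig1 was no longer called in KO without KO replicate 1 or KO replicate 2 (adjusted p = 0.0587 and 0.0771). Nsdhl was no longer called in ETO without Control replicate 1, Control replicate 2, ETO replicate 1 or ETO replicate 2 (adjusted p = 0.0553, 0.218, 0.154 and 0.0785). Plin2 was no longer called in KO without KO replicate 2 (adjusted p = 0.0564).

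Cul9, a cullin that binds p53 (chromosome 17, 46500609 to 46546388, mm10), was among the genes of this class named by rule and measured 77.8 and 63.8 in WT, 18.8 and 23.6 in KO, 18.7 and 18.7 in Control and 117 and 110.4 in ETO. WT and ETO were high and KO and Control low, with log2 changes of -1.69 in KO (adjusted p = 0.000173) and 2.54 in ETO (adjusted p = 7.86e-07). Sorbs3, the adaptor vinexin, measured 28.7 and 26.5 in WT, 8.07 and 7.85 in KO, 1.10 and 4.15 in Control and 93.9 and 103 in ETO, with Control at 1 and 4 reads. Nlrx1, a mitochondrial NOD-like protein, measured 144 and 117 in WT, 53.9 and 37.6 in KO, 9.91 and 15.6 in Control and 54.0 and 54.0 in ETO; KO fell to near the level of ETO. Bfsp1, a lens filament protein, measured 6.48 and 4.91 in WT, 1.35 and 0 in KO, 33.0 and 34.2 in Control and 473 and 471 in ETO, where KO held at most 1 read. Selplg, Heph, Dnaja4 and Fads3 were the others named by rule, and each of these 4, like Cul9 and Nlrx1, lost its class in at least 1 of the 20 settings tried. Msl3, a subunit of the MSL complex of MOF, moved as Kat8 did: it measured 106 and 113 in WT, 64.6 and 57.6 in KO, 125 and 109 in Control and 268 and 242 in ETO (difference -1.95 ± 0.22 (SE, adjusted p = 7.87e-06)). Of the 12 genes of MOF and its complexes, 5 rose and 2 fell in KO, and 3 rose and 7 fell in ETO. Beside these stand 23.3% up and 12.4% down in KO, and 26.4% up and 33.3% down in ETO, among all tested genes. Ogt, the O-GlcNAc transferase of the NSL complex, went the other way, from 4972 and 5320.1 to 7248 and 7690.4 and from 4532 and 4616 to 3750.1 and 3603, and the row of Kansl1, an NSL scaffold, rose in both (0.44 and 0.40). Fads3 was no longer called in KO without KO replicate 1 or WT replicate 1 (adjusted p = 0.0982 and 0.0985). Heph was no longer called in KO without KO replicate 2 (adjusted p = 0.0521). Selplg was no longer called in KO without KO replicate 2 or WT replicate 1 (adjusted p = 0.0732 and 0.0755).

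Other genes changed in ETO and were not called in KO. With the difference called, 1827 genes rose and 2405 fell in ETO without a KO call, and 222 of the former had a mean under 10 in both WT and KO. Krt18, a keratin of simple epithelia (chromosome 15, 102028216 to 102032026, mm10), measured 93.5 and 108 in WT, 106 and 92.9 in KO, 29.7 and 44.6 in Control and 2501 and 2618 in ETO. WT and KO overlapped, and ETO exceeded every other library, with a difference of -6.11 ± 0.25 (SE, adjusted p = 1.97e-09). Of 16 trophectoderm and epithelial genes, 4 rose and 0 fell in KO, and 12 rose and 3 fell in ETO, with a median of 0.10 in KO and 2.35 in ETO. Krt8, Krt7 and Cldn4, further keratins and a claudin, rose in ETO (3.26, 4.21 and 3.00) beside KO changes of -0.04, 0.04 and -0.01. The row of Krt19 rose in both, from 12.031 and 19.6 to 87.4 and 94.2 and from 143 and 159.8 to 3136 and 3476. Cdx2, a defining trophectoderm factor, was at 0 in all WT and KO libraries, at 61.6 and 35.3 in Control and at 5.93 and 7.47 in ETO. Summed levels of the 5 trophectoderm markers were 275.9 to 298.9 in WT, 283.9 to 305.0 in KO, 255.3 to 273.0 in Control and 516.9 to 559.4 in ETO. Of these, Krt7 rose from 16.5 and 16.6 in Control to 309 and 337 in ETO, and the row of Gata3 from 20.9 and 17.6 to 73.1 and 101. Tfap2a fell from 173 and 184 to 125 and 112, Cdx2 fell too, and Elf5 stayed at 3.95 or less. The part of such cells in these results was not tested. Gch1, the first enzyme of tetrahydrobiopterin synthesis, measured 17.6 and 17.7 in WT, 17.5 and 17.0 in KO, 0 and 1.04 in Control and 86.0 and 106 in ETO. Adh7, Card14, Tmprss2, Car6, Tcf23 and Ttc39a were the others named in this class, with Control at or under 3 reads for each except Ttc39a; Card14, a scaffold of NF-kappaB signalling, measured 73.0 and 68.3 in WT, 58.3 and 46.1 in KO, 1.43 and 0 in Control and 125 and 144 in ETO. Car6 was called in KO without KO replicate 1 (adjusted p = 0.039). Cdx2 was no longer called for the difference without Control replicate 1 or ETO replicate 1 (adjusted p = 0.119 and 0.0685). Ttc39a was called in KO without KO replicate 1 (adjusted p = 0.0171).

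Of 27 genes of naive pluripotency, 7 rose and 5 fell in KO, and 3 rose and 22 fell in ETO (with total signal 2 and 11 in KO); on the authors' scale the ETO median was -0.60, and the KO median -0.03. Shares of all tested genes were 23.3% up and 12.4% down in KO, and 26.4% up and 33.3% down in ETO. Nanog and Zfp42 moved apart, Nanog from 5012 and 5096 to 6307 and 6597 in KO and from 9050.4 and 9536 to 4003 and 3843 in ETO, and Zfp42 by 0.41 and -0.74. Esrrb fell in both (-0.41 and -0.57). Prdm14, a repressor of differentiation, fell in ETO alone (-1.49), and Lin28a, an RNA-binding protein, fell from 1296 and 1344 to 47.4 and 63.9 in ETO and from 785 and 837 to 625 and 602 in KO. Of 17 formative and primed genes, 7 rose and 1 fell in KO, and 2 rose and 10 fell in ETO. Pou2f3, a POU factor, measured 830.1 and 799 in WT, 876 and 874 in KO, 779 and 817 in Control and 47.4 and 49.0 in ETO; WT, KO and Control were close and ETO was low. A2m, the protease inhibitor alpha-2-macroglobulin, Nphs1, nephrin, and Nkx1-2, a homeobox factor, fell in ETO in the same way (-4.01, -4.60 and -4.48) with KO changes of 0.11, 0.05 and 0.04. T, which encodes brachyury, measured 172 and 193 in Control and 7.91 and 7.47 in ETO but 2 reads in each WT and 1 in each KO library, so that a fall after Mof deletion could not have been seen. Among 17 targets of Wnt and beta-catenin, 3 rose and 1 fell in KO, and 0 rose and 10 fell in ETO (with total signal 3 and 4 in KO). Of 18 genes of DNA methylation, 8 rose and 1 fell in KO, and 5 rose and 8 fell in ETO (with total signal 8 and 6 in ETO); Dnmt3a rose in ETO (2.11) and Dnmt3b fell there (-1.60). Lin28a was no longer called in KO without KO replicate 1, KO replicate 2 or WT replicate 2 (adjusted p = 0.0627, 0.103 and 0.0741).

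Most glycolysis genes fell in ETO. Of 23 genes, 6 rose and 5 fell in KO, and 2 rose and 18 fell in ETO (with total signal 2 and 7 in KO). Beside these stand 23.3% up and 12.4% down in KO, and 26.4% up and 33.3% down in ETO, among all tested genes. Ldha, the lactate dehydrogenase A subunit, measured 5364 and 4903 in WT, 5151 and 5071 in KO, 5676 and 5631 in Control and 1031 and 1158 in ETO, with WT and KO overlapping and ETO below every other library (difference 2.37 ± 0.10 (SE, adjusted p = 2.42e-09)). Tpi1, the triose phosphate isomerase, moved apart (0.41 and -2.01), and Pfkl, a phosphofructokinase, fell in both (-0.66 and -1.84). Of 35 genes of the TCA cycle and pyruvate entry, 6 rose and 12 fell in KO, and 5 rose and 23 fell in ETO; Got2, the mitochondrial aspartate aminotransferase, fell in both (-0.56 and -0.79), and Pdk1, a pyruvate dehydrogenase kinase, fell in ETO alone (-2.37). In KO the fall of TCA genes widened with total signal, to 20 of 35. Of 30 other acetyltransferases and deacetylases, 12 rose and 6 fell in KO, and 8 rose and 12 fell in ETO (with total signal 6 and 7 in KO and 12 and 11 in ETO). Hat1, the acetyltransferase of new histone H4, went from 7897 and 8875 to 10723 and 11696 in KO and from 6016 and 6001 to 3789 and 3562 in ETO. Hdac7 fell in both (-1.01 and -1.62), and Hdac1 fell in ETO (-1.40) with a KO change of 0.19.

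Genes called in KO and not in ETO were fewer: 747 genes rose and 488 fell in KO with the difference called and no ETO call, and 170 and 331 of them held under all 5 scalings. Arpin, an inhibitor of the Arp2/3 complex (chromosome 7, 79925359 to 79935264, mm10), measured 83.3 and 104 in WT, 28.3 and 11.8 in KO, 161 and 158 in Control and 198 and 180.2 in ETO. KO lay below WT, and ETO was not called (0.24, adjusted p = 0.495). Acy3, an aminoacylase, measured 51.8 and 54.0 in WT, 16.1 and 6.54 in KO, 33.0 and 28.0 in Control and 28.7 and 41.5 in ETO. Ehbp1l1, an endocytic adaptor, measured 44.4 and 47.1 in WT, 9.42 and 7.85 in KO, 55.0 and 42.6 in Control and 49.4 and 54.8 in ETO. Mpp2, a membrane scaffold, measured 87.9 and 75.6 in WT, 14.8 and 23.6 in KO, 42.9 and 24.9 in Control and 33.6 and 40.7 in ETO. In all 3 genes the KO libraries were the lowest. Sirt2, a cytosolic deacetylase of tubulin, fell from 507 and 455 to 227 and 195 in KO and measured 568 and 520 in Control and 621 and 579.5 in ETO (difference -1.33 ± 0.15 (SE, adjusted p = 9.2e-06)). Of the 8 genes named for rises in KO alone, 7 were higher in Control and ETO than in WT or KO. Msc, the factor musculin, measured 12.031 and 8.54 in WT, 36.3 and 26.2 in KO, 259 and 287 in Control and 209 and 216 in ETO. Ephb1, an ephrin receptor, measured 1.85 and 2.95 in WT, 22.9 and 14.4 in KO, 90.3 and 87.2 in Control and 60.3 and 56.5 in ETO, and Nt5e, the ectonucleotidase CD73, 0.925 and 3.93 in WT, 25.6 and 20.9 in KO, 44.0 and 38.4 in Control and 58.3 and 57.3 in ETO, both starting at 4 reads or fewer in WT. Cpxm2, Pramef17, Pramel7 and Smyd1 were also below 50 in WT and KO and above 50 in Control and ETO, whereas Mup6, a lipocalin, was highest in KO. Il17rc, Pla2g4f, Psd4 and Arhgap33os, named in the falling class, kept it in 8 to 13 of 20 settings. Cpxm2 was no longer called in KO without KO replicate 1 or WT replicate 1 (adjusted p = 0.0527 and 0.0627). Mup6 was called in ETO without ETO replicate 2 (adjusted p = 0.0169).

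**Figure D5:**
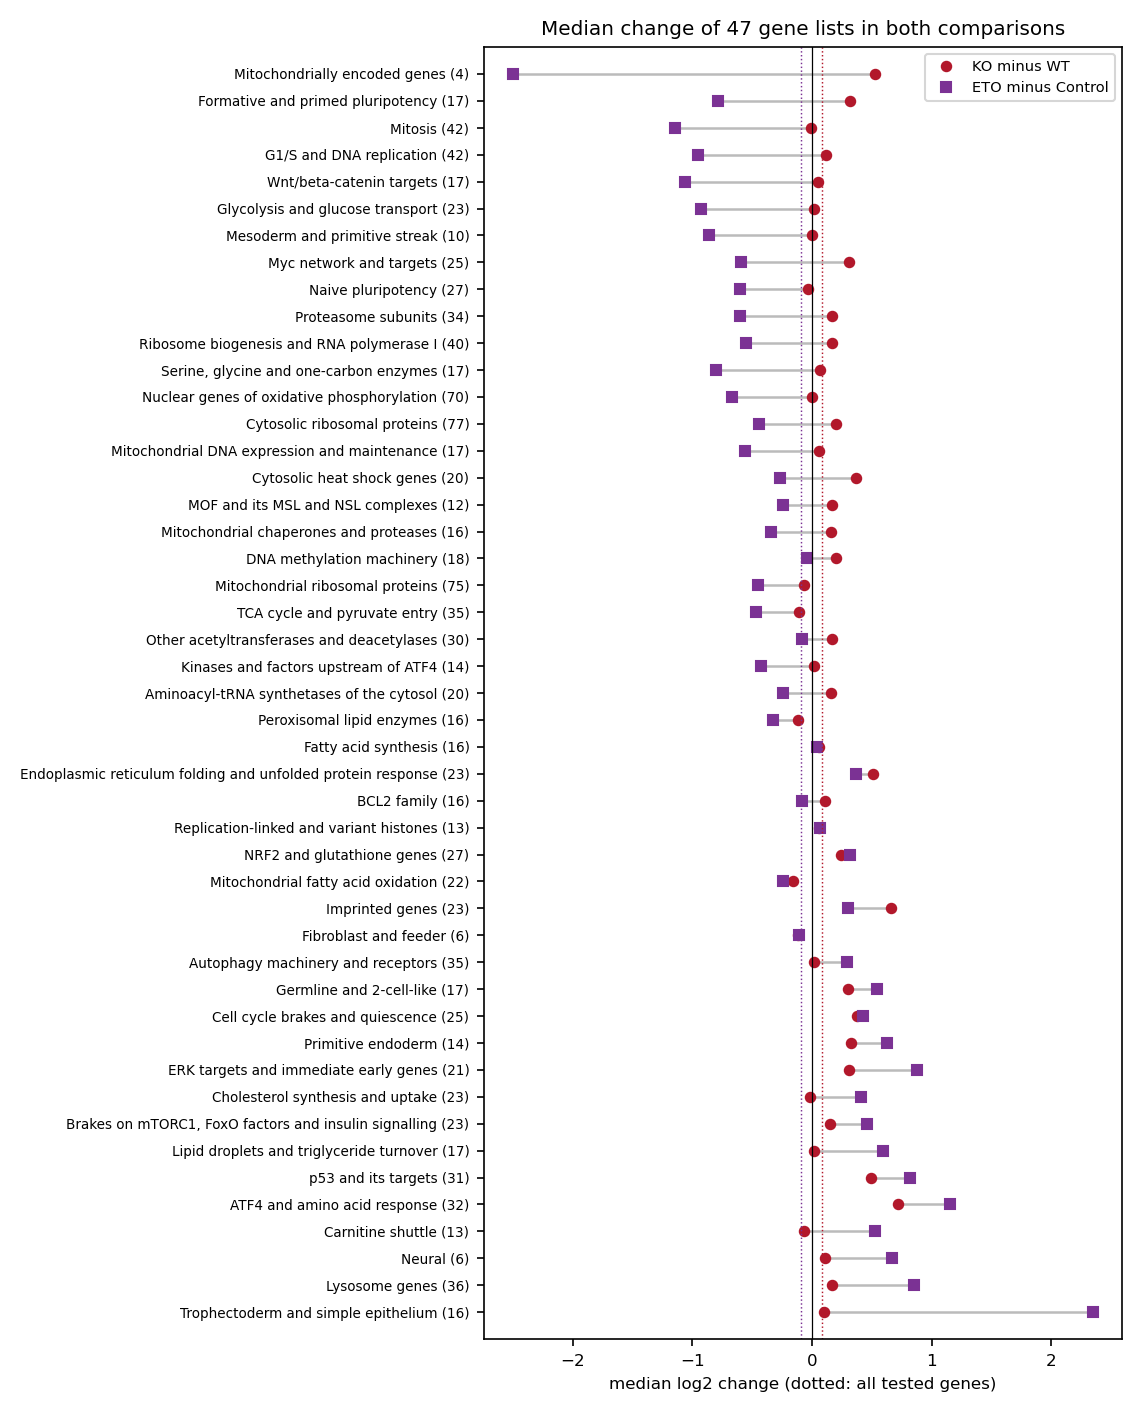
Median log2 change of the tested members (x axis) of 47 gene lists (y axis, tested members in parentheses), for KO minus WT (circles) and ETO minus Control (squares), ordered by the median difference; dotted lines mark the medians of all tested genes. The ATF4 list stands to the right in both comparisons, at 0.72 and 1.15, while mitosis genes stand at -0.01 in KO and -1.15 in ETO.

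Lineage lists gave small groups, to be set beside all tested genes, of which 23.3% rose and 12.4% fell in KO. In ETO, 26.4% of all tested genes rose and 33.3% fell. Of 14 primitive endoderm genes, 5 rose and 2 fell in KO, and 7 rose and 2 fell in ETO; Gata4 fell in KO from 84.2 and 86.4 to 56.5 and 45.8 and rose in ETO from 22.0 and 20.8 to 135 and 127, while Gata6 rose in ETO alone (3.23). Of 10 mesoderm genes, 3 rose and 0 fell in KO, and 3 rose and 5 fell in ETO, and of 6 neural genes, 2 rose and 0 fell in KO, and 3 rose and 0 fell in ETO. Of 6 fibroblast and feeder genes tested, 1 rose and 1 fell in KO, and 2 rose and 1 fell in ETO (with total signal 1 and 2 in KO); Col1a1 measured 24.1 and 16.7 in WT, 32.3 and 23.6 in KO, 39.6 and 40.5 in Control and 152 and 154 in ETO, and its part in the results was not tested. Eomes, a T-box factor of trophectoderm and mesoderm, rose in both (1.27 and 2.60). Of 17 germline and 2-cell-like genes, 6 rose and 1 fell in KO, and 12 rose and 3 fell in ETO, and 5 rose in both under all 5 scalings. Of 23 imprinted genes, 10 rose and 2 fell in KO, and 10 rose and 6 fell in ETO; Grb10, a growth factor receptor adaptor, rose in ETO alone, from 665 and 658 to 2901 and 3054. Of 21 ERK targets and immediate early genes, 8 rose and 0 fell in KO, and 11 rose and 8 fell in ETO; Cyr61, a matricellular protein, rose in both (1.12 and 1.49), and Etv4, an ETS factor, moved apart (0.45 and -2.49). Eomes was no longer called in KO without KO replicate 1 (adjusted p = 0.0524). Etv4 was no longer called in KO without KO replicate 1 (adjusted p = 0.0817). Gata4 was no longer called in KO without KO replicate 2 or WT replicate 2 (adjusted p = 0.0896 and 0.053).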

How the data were processed

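RNA was sequenced single-end from TruSeq libraries of mouse embryonic stem cells, per the labels' protocols. The submitters' processing notes name TopHat2 2.1.1, SAMtools 1.5, deepTools and the build mm10; the program and strand setting of the gene tables are not given in the sources used here, so overlapping genes are uncertain. Per the file headers, the authors deposited a count and an FPKM for each gene and library. The deposited counts are a normalised signal: whole reads divided by 1 factor per library for 89.0% to 90.3% of low values (under 20 reads, tolerance 0.1 read), so the count test that was planned for whole reads gave way to limma. Rows of one name were summed, and 1314 rows that merge genes hold 11.5% to 14.3% of the signal.

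A limma model (3.58.1, R 4.3.3) with 1 mean per group over 8 libraries was fitted to log2(normalised count + 1), its variances moderated robustly along a trend with intensity. Tests were two-sided; a call needs an adjusted p under 0.05 (Benjamini-Hochberg, 15865 genes). In simulated data with 200 changed genes among 15259 to 15304 tested, the fit recovered 15.5% of differences of 1.5-fold, 63.2% of 2-fold and 89.3% of 4-fold, with 0.0292% of unchanged genes called. The simulation changed genes in KO only and gave all groups 1 dispersion (0.008) and otherwise equal means. In the data 53% of differences were called and the groups differed in spread, so these rates do not carry over to the data. Members and the 47 lists (1241 entries, 1184 tested) were chosen with earlier results of these data known. Named genes were, per class, the 8 single-gene rows with the largest smaller change (or difference, for genes called in one experiment alone) among those with a group mean of at least 50 and groups that do not overlap, and per list up to 4 members by the p of the difference and up to 2 that moved alike; other named members were chosen after their values were seen. Alternatives were other scalings, pseudocount 5, filters, the FPKM values with a pseudocount of 0.1, other fits and leaving out each library. Coordinates and promoters are from RefSeq on GRCm38.p6 (mm10). Some results are not reported here.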

Additional observations from a re-analysis of the deposited data

How the results depend on the processing

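Under the other scalings, genes that rose in KO and fell in ETO numbered 857 with median-of-ratios factors, 904 with trimmed means of log ratios, 515 with total signal without mitochondrial rows and 476 with total signal; genes that fell in KO and rose in ETO numbered 994 and 1076 with the last 2. In the FPKM values 2345 genes were called in KO, 493 were alike up, 232 alike down, and 497 and 128 apart. Named genes that lost their class there included Slc7a11, Col4a1, Axin2, Pfkl, Pcca, Eif2ak1, Hdac7, Nodal and Eomes. Cpt2, Gata4, Gabarapl1, Hsd17b7, Insig1 and the rows of Kansl1 and Gas5 lost theirs as well. Without the intensity trend and robust fitting, 788 rose in KO and fell in ETO. Requiring 2-fold in both left 275 alike up, 74 alike down, and 40 and 79 apart. The cause of these shifts was not tested, apart from the scalings, which move every change of a library together. The sign of the difference turned for Espl1 (-0.02 and -0.06), Hspa5 (-0.04 and -0.08) and Hspa9 (-0.04 and -0.09) with total signal without and with mitochondrial rows, and for Psmb2 (-0.00) with total signal. Leaving out each library in turn gave 3938 to 5503 KO calls, 7948 to 9908 ETO calls, 7236 to 8342 calls of the difference, 942 to 1188 genes alike up, 480 to 700 alike down, 893 to 1624 that rose in KO and fell in ETO (893 without KO replicate 2) and 333 to 443 that fell in KO and rose in ETO; a group left with 1 library is assumed to vary like the others. The replicate numbers are shared between groups but were not shown to pair samples (correlation of deviations 0.10 for KO with WT and -0.0091 for ETO with Control); with the replicate number as a block 4367 genes rose and 2382 fell in KO, 4443 rose and 5655 fell in ETO, and 1473 and 932 were alike and 1840 and 576 apart. WT duplicates differed most, and precision weights were 0.63 in WT and 0.887 in KO, against 1.38 in Control and 1.3 in ETO. The shared error thus tended to understate that of KO against WT. With each experiment fitted alone, 4500 genes were called in KO and 10374 in ETO, against 5675 and 9480 in the shared fit. Genes alike then numbered 1047 up and 597 down.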
